A study of Mus musculus with 2 samples.

Results

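The genes described here were the interleukin receptor subunits outside the IL-17 receptor family. They were taken by symbol from the array's annotation, as every gene symbol that begins with Il, a number and r, together with Il6st and without the IL-17 receptor genes and the IL-1 antagonist Il1rn. This gave 32 genes of 19505 named genes, each measured by 1 probe set. The symbol pattern uses no measured value. Il2rg, Il1rl1, Il11ra1 and Il11ra2, which would belong to the same families, were not analysed here.

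RNA was compared on 2 Affymetrix arrays, 1 of wild-type (WT) and 1 of circKcnt2-deficient group 3 innate lymphoid cells (ILC3s), lymphocytes without rearranged antigen receptors that act at mucosal surfaces. In both groups the sort took cells that lacked lineage markers and carried high CD90 and low CD45, and all mice had received dextran sodium sulfate (DSS), which injures the gut epithelium. The arrays are called WT and knockout below. The WT mice were littermates, and the knockout was a germline CRISPR deletion of intronic sequence needed to form the circular RNA circKcnt2, on a C57BL/6 background, so it was present in every cell of the animals. The labels give neither age nor sex, and do not say how many animals gave the cells. There was no replicate array, so no value below has a replicate error and no test across samples was possible.

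Levels are log2 values after robust multi-array averaging (RMA), and differences are circKcnt2-deficient minus WT. A level of 2.73 was taken as background, the 95th percentile of the brighter value of 1412 olfactory and vomeronasal receptor genes, and a gene was called above background if it reached this on at least 1 array. The cell label was set against fixed markers. All 9 measured T cell markers lay above background on both arrays, with levels between 6.75 and 10.16 and summed levels of 80.25 on WT and 81.48 on knockout. Of 9 measured ILC3 markers 5 did so (summed levels 30.6 and 30.2), and the defining markers Il23r, Il1r1, Ccr6 and Ncr1 were below background on both arrays. On at least 1 array, ILC1 and NK cell markers were above background in 4 of 7 (summed levels 27.2 and 28.1) and ILC2 markers in 2 of 4 (15.7 and 15.5). B and plasma cell markers were so in 4 of 5 (20.1 and 18.7), of which 3 passed on both arrays. Myeloid markers were so in 6 of 6 (20.55 and 19.65), of which 3 passed on both arrays, and epithelial markers in 3 of 6 (18.8 on both). Single markers of other cells moved further than any subunit. Jchain of plasma cells was at 6.72 in WT and 4.30 in knockout, Cd79b of B cells at 3.91 and 4.87, and the myeloid gene Itgam at 2.53 and 3.39. The arrays are therefore named by their labels only. Of the Y-linked genes, Uty, Kdm5d and Eif2s3y passed background in WT alone. Uty was at 5.26 in WT and 1.24 in knockout, Kdm5d at 4.63 and 1.52, and Eif2s3y at 5.14 and 2.45. Sry was at 3.44 in WT and 3.39 in knockout. The labels give no sex, and whether the animals of the arrays differed in sex was not tested. Such a difference and genotype cannot be told apart in any value below. The part of other cells in the values below was not tested.

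Interleukin receptors are built from a few shared chains and many private ones. The common gamma chain family serves IL-2, IL-4, IL-7, IL-9, IL-15 and IL-21, and these receptors signal through Janus kinases (JAKs) to STAT transcription factors. Receptors of the IL-12 and gp130 families and the class II receptors of the IL-10 family use the same kind of signal, whereas receptors of the IL-1 family carry a cytoplasmic TIR domain and signal through MyD88 and IRAK kinases. In innate lymphocytes IL-7 is known as a survival signal, and IL-23 and IL-1 beta are known inducers of IL-17 and IL-22 in ILC3s.

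The promoters of 4 subunits on which the results turn are shown as their regulatory sequence. They belong to Il7r, which encodes the IL-7 receptor alpha chain, to Il12rb2, which had the largest difference among subunits with levels above 5.91, to Il18r1, the only subunit past 1.5-fold, and to Il15ra, the only subunit above background on both arrays with an AP-1 match. The sequences are from RefSeq (GRCm38.p6) and run from 250 bases before to 50 bases after a listed start site. Il7r lies at chr15:9529827-9530126 and Il12rb2 at chr6:67376139-67376438, both on the minus strand. Il18r1 lies at chr1:40465756-40466055 and Il15ra at chr2:11705462-11705761, both on the plus strand. Capitals mark TTCNNNGAA, the letters that STAT factors are known to bind, in the first 3 and TGANTCA, the letters known for AP-1 factors including BATF, in Il15ra.
Il7r: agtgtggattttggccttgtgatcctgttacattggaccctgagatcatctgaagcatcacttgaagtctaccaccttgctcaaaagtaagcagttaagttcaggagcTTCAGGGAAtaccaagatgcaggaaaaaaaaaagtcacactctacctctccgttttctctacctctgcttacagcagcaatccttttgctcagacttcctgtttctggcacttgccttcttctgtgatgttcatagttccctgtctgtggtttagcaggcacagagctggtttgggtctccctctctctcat
Il12rb2: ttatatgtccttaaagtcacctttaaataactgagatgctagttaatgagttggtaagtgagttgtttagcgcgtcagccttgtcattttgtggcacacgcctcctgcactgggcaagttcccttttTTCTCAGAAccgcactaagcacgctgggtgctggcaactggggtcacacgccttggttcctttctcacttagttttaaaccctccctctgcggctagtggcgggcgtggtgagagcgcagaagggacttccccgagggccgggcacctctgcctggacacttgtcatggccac
Il18r1: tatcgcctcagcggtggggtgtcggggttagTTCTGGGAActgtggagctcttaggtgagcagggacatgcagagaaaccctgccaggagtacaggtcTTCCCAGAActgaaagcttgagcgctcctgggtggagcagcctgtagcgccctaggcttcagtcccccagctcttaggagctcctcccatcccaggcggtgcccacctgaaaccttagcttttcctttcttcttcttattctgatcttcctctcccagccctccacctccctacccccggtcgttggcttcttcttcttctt
Il15ra: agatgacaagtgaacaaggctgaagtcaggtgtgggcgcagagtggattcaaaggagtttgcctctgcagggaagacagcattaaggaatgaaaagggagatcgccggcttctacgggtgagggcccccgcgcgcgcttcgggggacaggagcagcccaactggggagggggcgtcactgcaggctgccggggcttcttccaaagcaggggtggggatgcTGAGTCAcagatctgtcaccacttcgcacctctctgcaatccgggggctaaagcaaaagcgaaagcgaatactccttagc

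Promoters were listed for 26 of the 32 subunits (30 start sites). Both letter patterns read the same on either strand and did not overlap in the windows shown. TTCNNNGAA stood in 5 of the 30 windows (16.7%), those of Il7r, Il12rb2, Il18r1, Il1r2 and Il31ra, against 8.30% of all 32851 windows of the same length. TGANTCA stood in 5 as well (16.7%), those of Il15ra, Il22ra1, Il5ra, Il20ra and Il13ra2, against 7.81% of all windows. The matches began at position -142 from the start site in Il7r, -123 in Il12rb2, -219 and -152 in Il18r1 and -30 in Il15ra. The other 2 listed start sites of Il18r1 and the other 1 of Il15ra had neither pattern. A match is a description of these letters and not a binding site. The 5 subunits with TTCNNNGAA held the lowest difference among all subunits (Il18r1) and a higher level of Il12rb2, so they did not share a direction.

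The first question was which receptor subunits were above background. Of 32 subunits, 20 (62.5%) were above background on at least 1 array against 64.1% of all named genes. Of these 20, 17 were above it on both arrays and 3 on 1 alone, where 8.81% of all genes above background were of the latter kind. All 7 common gamma family subunits were above background, as were 4 of 8 IL-1 family subunits, 3 of 4 of the IL-12 family, 3 of 6 of the IL-10 family, 2 of 3 of the gp130 family and 1 of 4 of the remaining subunits. The 12 subunits below background on both arrays had levels between 0.81 and 2.27. They were Il1r1, Il1r2, Il1rapl1 and Il1rapl2 of the IL-1 family, Il23r, Il20ra, Il20rb and Il22ra2 of the IL-12 and IL-10 families, Il31ra, Il5ra, Il13ra1 and Il13ra2. No fold is given for these. The 4 X-linked subunits (Il13ra1, Il13ra2, Il1rapl1 and Il1rapl2) were all among them.

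**Figure D1:**
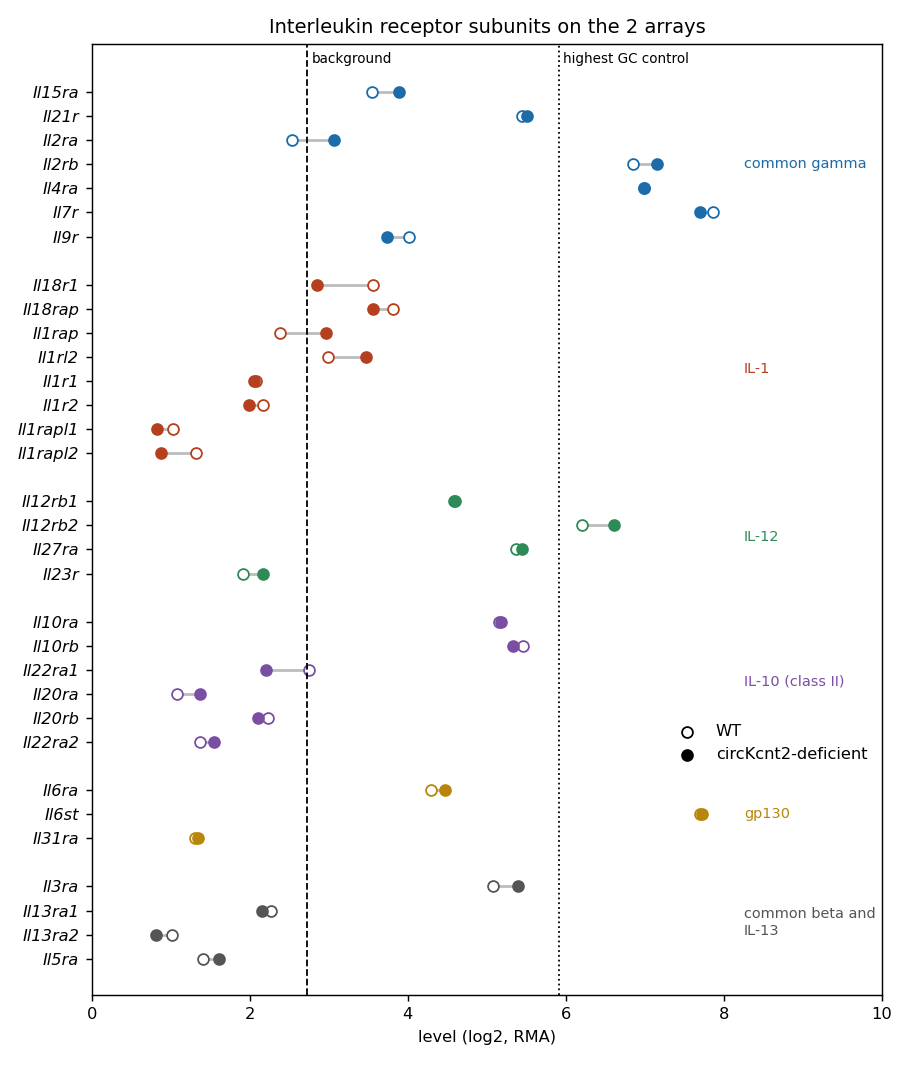
Level (log2, RMA) of each of the 32 subunits on the WT array (open circles) and the circKcnt2-deficient array (filled circles), 1 array each, by family. The dashed line is the background level of 2.73 and the dotted line the highest GC-matched control at 5.91, and Il12rb2, Il2rb, Il4ra, Il7r and Il6st lie beyond the latter.

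Background differed with probe composition. The 23 control probe sets matched for GC content ran from 0.74 to 5.91, and 5 subunits (Il12rb2, Il2rb, Il4ra, Il7r and Il6st) lay above the highest of them. The levels of the other 15 subunits above background are less firmly separated from background. Levels of different subunits depend on their probes and were not ranked.

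The next question was whether the subunits differed between the genotypes. None of the 20 subunits above background was at least 1.5-fold higher in knockout cells, where 7.66% of 12504 named genes above background were. Of the 20, 1 was at least 1.5-fold lower (Il18r1), where 5.21% of all such genes were. Both counts were near the background of all genes. None reached 2-fold in either direction (1.11% of all genes higher and 0.512% lower). The median difference of the subunits was 0.04 against 0.06 for all genes, with quartiles of -0.13 and 0.32 against -0.20 and 0.30. For the 5 subunits that reached the highest GC-matched control the median was 0.02, against 0.16 for all genes that did. Of the 20, 14 were higher (56.4% of all genes were) and 6 differed by less than 0.10 (21.2% of all genes did). All 20 differences lay within the middle 95% of differences of genes of like level, which are not replicates. In RNA of a mixed sample, fewer cells of a type and less RNA per cell cannot be told apart.

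**Figure D2:**
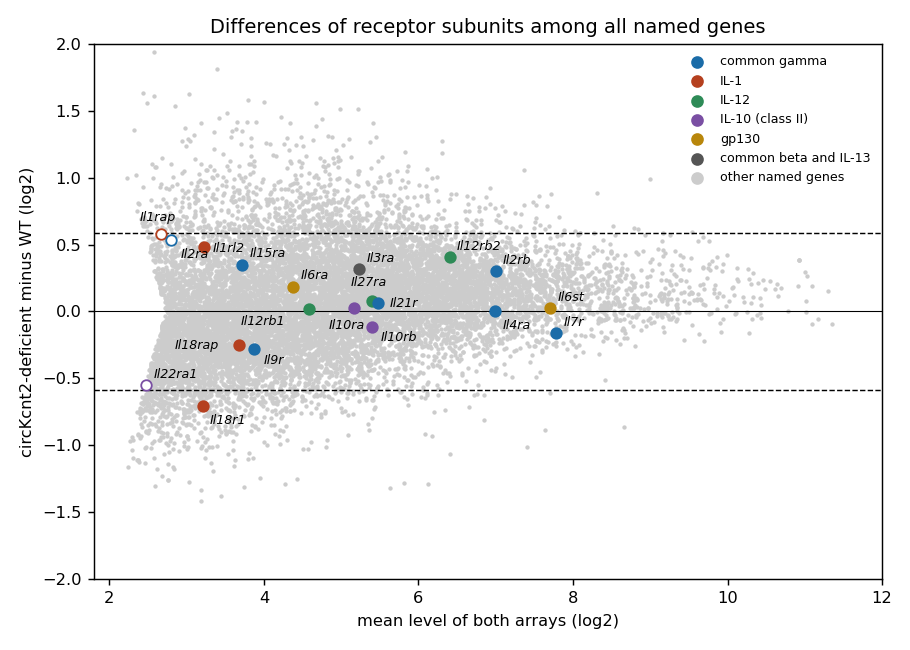
Difference between the arrays (circKcnt2-deficient minus WT, log2) against the mean level of both arrays (log2) for all named genes above background (grey) and the 20 subunits above background (coloured by family, open where 1 array was below background). The dashed lines mark 1.5-fold, and Il18r1 alone lies past them, while 7 genes with differences beyond 2 on the log2 scale are outside the axis.

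The common gamma family holds the receptors for lymphocyte survival and growth factors. Il7r was at 7.86 in WT and 7.70 in knockout, a difference of -0.16. The middle 95% of genes of like level ran from -0.22 to 0.58. Il4ra, which encodes the chain that binds IL-4, was at 6.99 on both arrays. Il2rb, the signalling chain shared by the IL-2 and IL-15 receptors, was at 6.85 and 7.15 (0.30), for which the middle 95% of genes of like level ran from -0.33 to 0.68. These 3 subunits, above every GC-matched control, thus differed by at most 1.23-fold in the values as reported. After quantile normalization the differences were -0.30 for Il7r, -0.13 for Il4ra and 0.17 for Il2rb. Il21r, the IL-21 receptor, was at 5.45 and 5.51. Il15ra, which presents IL-15, was at 3.54 and 3.89 (0.35), and Il9r, the IL-9 receptor, at 4.02 and 3.73 (-0.28). Il2ra, the inducible high-affinity IL-2 receptor chain CD25, did not reach background in WT (2.53) but did in knockout (3.07), so it was at least 1.26-fold higher. Il2ra and Il15ra, next to each other on their chromosome, were both higher. Il1rl2 and Il18r1 of the IL-1 family, with 1 gene between them, differed in opposite directions (0.48 and -0.71). Whether neighbouring genes move together was not tested. Of the 7 common gamma subunits 5 were higher and 2 lower. Their median of 0.06 turned to -0.07 after a loess correction on level and to -0.06 after quantile normalization.

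The lowest and the highest difference of the 20 subunits both lay in the IL-1 family (Il18r1 and Il1rap). Levels of this family were at most 3.81. Il22ra1 (-0.55) and Il2ra (0.53) of other families, also low in level, came next in size. The spread among genes of like level was 0.40 for Il18rap and 0.43 for Il1rap, against 0.20 for Il7r. Il18r1, the ligand-binding chain of the IL-18 receptor whose promoter is printed above, was at 3.56 in WT and at 2.85 in knockout, a 1.63-fold lower level. For genes of like level the middle 95% of differences ran from -0.89 to 0.89. Of the olfactory and vomeronasal receptor genes, 98.9% lay below Il18r1 on the WT array and 97.0% on the other, so its level was close to background on both. Its partner and neighbouring gene Il18rap, the signalling chain, was at 3.81 and 3.55 (-0.25). For Il18rap the middle 95% of genes of like level ran from -0.77 to 0.91. Both chains of the IL-18 receptor were lower, Il18rap by less than 1.5-fold, and each within the range of its level. With 32 added before the logarithm the differences were -0.16 for Il18r1 and -0.07 for Il18rap. Il1rl2, which encodes the IL-36 receptor, was at 2.98 and 3.47 (0.48). Il1rap, the accessory chain shared by the receptors for IL-1, IL-33 and IL-36, did not reach background in WT (2.38) and was at 2.96 in knockout, at least 1.17-fold higher. Its measured difference of 0.58 was just inside the log2 limit of 1.5-fold. Il1r1, the signalling receptor for IL-1, was at 2.07 and 2.05, and the decoy receptor Il1r2 at 2.17 and 1.99. The family median was 0.12, and it was -0.01 with values raised to the background level.

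In the IL-12 family the chains of the IL-12 receptor were both above background. Il12rb1, the chain that IL-12 and IL-23 receptors share, was at 4.58 in WT and 4.60 in knockout. Il12rb2, the private chain of the IL-12 receptor, was at 6.20 and 6.61, a 1.32-fold higher level. Genes of like level had differences between -0.39 and 0.61 in their middle 95%. Il23r, the private chain of the IL-23 receptor and the next gene to Il12rb2, was at 1.91 and 2.16, below background on both arrays. The 2 neighbours therefore differed in whether they were above background. Il27ra, which pairs with gp130 to bind IL-27, was at 5.36 and 5.44.

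Of the class II receptors, both chains of the IL-10 receptor were above background. Il10ra, the ligand-binding chain, was at 5.16 and 5.18, and Il10rb, shared with the IL-22 receptor, was at 5.45 and 5.33. Il22ra1, the private chain of the IL-22 receptor that is known from epithelial cells, was at 2.75 in WT and 2.20 in knockout. The first value was barely above background, so it was at least 1.02-fold lower. Its measured difference was -0.55. The IL-20 receptor chains Il20ra (1.08 and 1.37) and Il20rb (2.23 and 2.11) and the secreted IL-22 binding protein Il22ra2 (1.37 and 1.54) were below background.

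Il6st, which encodes gp130, the signalling chain of the IL-6 family, was at 7.70 and 7.72. Il6ra, the chain that binds IL-6, was at 4.29 and 4.47 (0.19). The IL-6 receptor chains were hence both above background, with differences under 0.20. Il3ra, the IL-3 receptor alpha chain, was at 5.08 and 5.39 (0.31). Il5ra, the alpha chain for IL-5, was at 1.40 and 1.61, and Il13ra1, which joins Il4ra in a receptor for IL-4 and IL-13, was at 2.27 and 2.15.

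The chains were then put together into receptors, a grouping from textbook pairs made after the values were seen and without the common gamma chain. Of 18 receptors with 2 measured chains, 8 had both chains above background on both arrays, those for IL-15, TSLP, IL-18, IL-12, IL-27, IL-6, IL-10 and IL-3. In 8 others, those for IL-1, IL-2, IL-5, IL-22, IL-23, IL-36, the shared IL-4 and IL-13 receptor and a receptor for IL-20, at least 1 chain was below background on at least 1 array. The IL-31 receptor and the other IL-20 receptor had no chain above background. The pairs for IL-23 and IL-1 thus lacked a chain above background in WT and knockout alike (Il23r and Il1r1).

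Chains that the symbol pattern leaves out were compared from a fixed list. Csf2rb, the common beta chain that pairs with Il3ra, was at 3.53 and 3.57, and Crlf2, which pairs with Il7r to bind TSLP, at 5.10 and 5.11. Sigirr, an inhibitory member of the IL-1 receptor family, was at 4.65 and 5.07 (0.42). Ifnlr1, the lambda interferon receptor that pairs with Il10rb, was at 3.36 and 2.67, the latter under background, which made it at least 1.55-fold lower. Of 6 measured partner chains 4 were above background, of which 1 (Ifnlr1) passed 1.5-fold on the lower side and 0 on the higher side.

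The ligands were mostly below background. Of 31 measured ligands and soluble inhibitors 6 (19.4%) were above background, against 64.1% of all named genes, and none of the 7 common gamma ligands was. Il22, which acts on epithelium, was at 3.35 and 2.93, and Il13, a type 2 cytokine, at 4.37 and 4.25. Of the IL-1 family Il33 was at 3.30 and 3.16, and Il18bp, the soluble inhibitor of IL-18, at 3.91 and 4.09. Lif was at 3.13 and 2.86. Osm, which encodes oncostatin M, was at 2.97 and 2.13, the latter under background, and was at least 1.18-fold lower, the only ligand above background on at least 1 array with a measured difference past 1.5-fold. Of the 6 ligands 1 was higher and 5 were lower, where 56.4% of all genes above background were higher.

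Signalling genes downstream of the receptors were above background throughout the lists. Of 3 measured JAK genes, Tyk2, the kinase bound to Il12rb1, was 1.66-fold higher (5.56 and 6.29). Jak1 was at 6.56 and 6.37 and Jak2 at 7.24 and 7.40. None of 6 measured STAT genes passed 1.5-fold, and the largest differences were those of Stat4, the factor of IL-12 signalling (4.43 and 4.83), Stat2 (5.21 and 5.58) and Stat3 (6.41 and 6.28). Of 11 SOCS and other JAK-STAT target genes 2 passed 1.5-fold, both on the higher side (7.66% of all genes did). Myc, a growth regulator, was at 6.97 and 7.77, and the kinase gene Pim2 at 3.84 and 4.52. Pim3 followed with 3.57 and 3.98. Both Myc and Pim2 also respond to other signals. The feedback inhibitors of cytokine receptors showed no common direction, with Cish at 3.30 and 3.08, Socs1 at 6.49 and 6.15, Socs2 at 3.47 on both arrays and Socs3 at 4.22 and 4.30. Among 9 measured genes of IL-1 receptor signalling none passed 1.5-fold, and Irak3 (3.50 and 3.16), Map3k7 (5.77 and 6.03) and Tab1 (5.38 and 5.63) had the largest differences. Of the 33 genes above background in these signalling and partner lists, 3 were at least 1.5-fold higher and 1 lower, which is near the 7.66% and 5.21% of all genes.

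**Figure D3:**
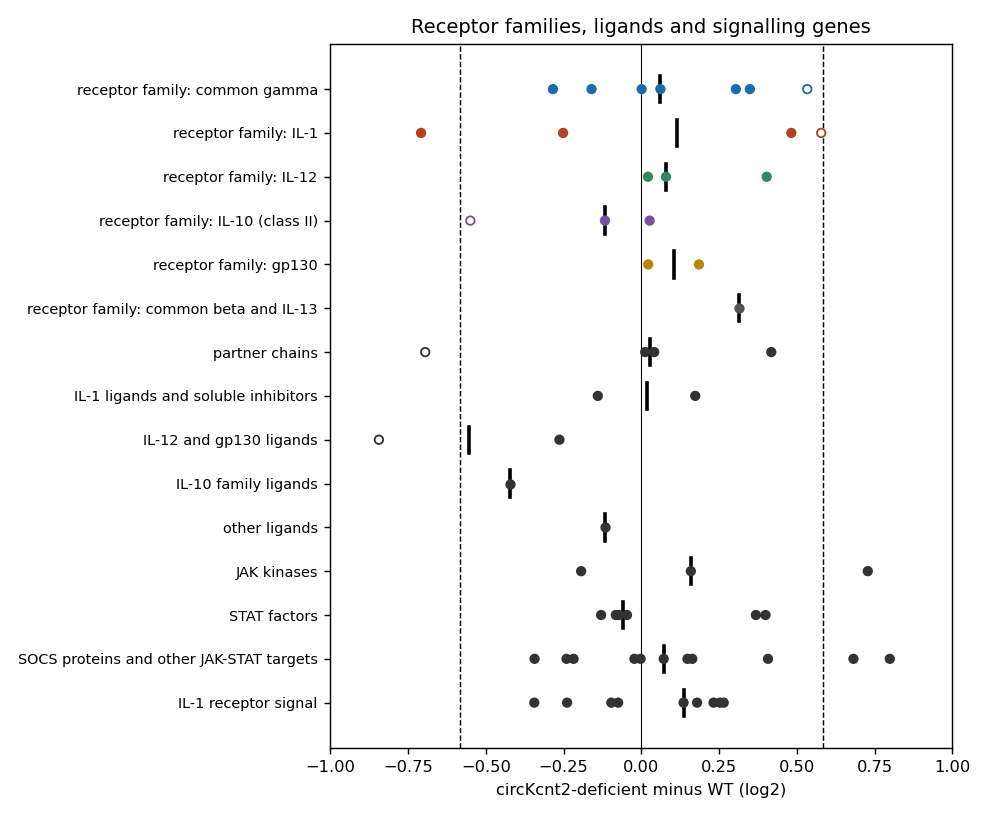
Difference between the arrays (circKcnt2-deficient minus WT, log2) of each gene above background in the 6 receptor families and in the fixed lists of partner chains, ligands and signalling genes, with the median of each list as a black bar and open circles where 1 array was below background. Past the dashed 1.5-fold lines lie Il18r1, Ifnlr1 and Osm on the lower side and Tyk2, Pim2 and Myc on the higher side.

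The differences of the 20 subunits were recomputed with other corrections. Of 120 such values 115 moved by less than the spread among genes of like level. Part of this was fixed in advance. Each subunit had 1 probe set, so the choice of the brightest probe set changed nothing. Raising values to background changed only the subunits below background on 1 array. Neither of these settings, nor 32 added before the logarithm, can turn a sign. The sign held in every setting for 14 subunits. It changed in at least 1 setting for the other 6 (Il27ra, Il21r, Il10ra, Il6st, Il12rb1 and Il4ra), whose differences were at most 0.08. After the loess correction 3 subunits were past 1.5-fold on the higher side (Il1rap, Il2ra and Il1rl2) beside Il18r1 on the lower side.

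**Figure D4:**
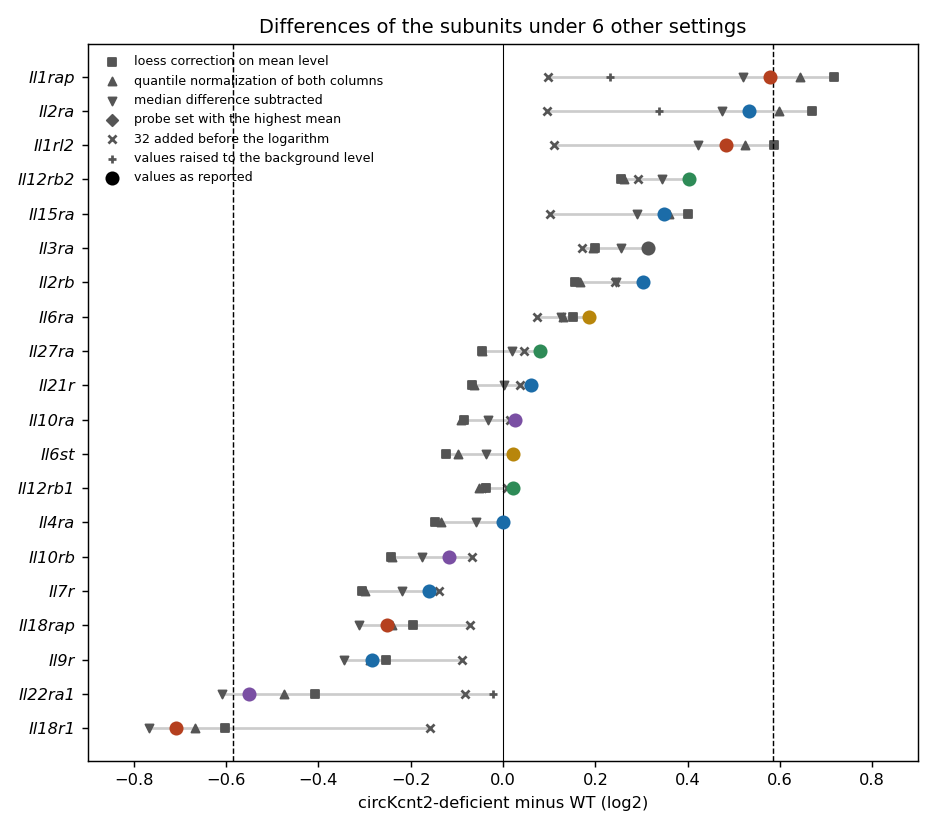
Difference (circKcnt2-deficient minus WT, log2) of the 20 subunits above background as reported (large circles, coloured by family) and under 6 other settings (small symbols), with dashed lines at 1.5-fold. Il18r1 runs from -0.77 to -0.16, and Il1rap from 0.10 to 0.72.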

How the data were processed

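RNA of sorted ILC3s from DSS-treated WT and circKcnt2-deficient mice had been extracted with Trizol, labelled with biotin and hybridized to Affymetrix mouse arrays, 1 per genotype. The table holds 1 log2 level for each probe set, as deposited by the authors. Per the submitters' processing notes they used Affymetrix Power Tools and the RMA method. RMA subtracts background, brings the probe values of the arrays to a common distribution and then summarises them by median polish. The summarised levels still held an offset that varied with level. The median difference was 0.06 for all genes above background and 0.16 for those that reached the highest GC-matched control. Tool versions are not given in the sources used here. A shift shared by all genes would be lost in such values. Precision is limited by there being 1 array per genotype, and signal over background stands in for depth.

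Identifiers in the table are not those of the Mouse Gene 2.0 array that the design text names but of another Affymetrix mouse design, whose annotation gave the gene names. Groups were taken from the genotype labels. The 19572 probe sets with a gene symbol in the platform annotation gave 19505 genes, and probe sets of a gene were averaged (55 genes). All 32 receptor symbols matched RefSeq names of assembly GRCm38.p6. For genes that reached background on 1 array alone, the fold was taken against the background level and is a bound. Spread among genes of like level was described in 20 bins of mean level. All subunits were named, as were genes of the further lists past 1.5-fold and up to 3 per list with the largest differences. Some further genes were picked for display by their role after their values were seen (Cish, Socs2, Socs3 and the receptor chains below background). Mcl1 was named because its difference lay outside the range of genes of like level. The members and lists were chosen with earlier results of these data known. Alternatives were other background floors, loess (span 0.3), quantile normalization, the median difference subtracted, the brightest probe set of a gene, 32 added before the logarithm, values raised to background and a 2-fold threshold. A floor on both arrays was added after seeing the data, as were the promoter letter patterns and the receptor pairs. Protein sequence features were not analysed here. Scripts ran in Python 3.11.15 with pandas 2.3.3 and statsmodels 0.14.6, and were tested on simulated data.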

Additional observations from a re-analysis of the deposited data

How the results depend on the processing

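The count of subunits at least 1.5-fold higher was 0 as reported and in the other settings tried, apart from 3 after the loess correction (6.69% of all genes) and 2 after quantile normalization (6.08%). The count at least 1.5-fold lower was 1, and it was 0 with the floor at the median level of named genes, a floor at the top GC-matched control, 32 added before the logarithm and the 2-fold threshold, and 2 with the median difference subtracted, when Il22ra1 (-0.61) joined Il18r1. Both stricter floors leave out Il18r1. The median difference of the subunits ran from -0.06 to 0.04. It was negative after the loess correction (-0.06), after quantile normalization (-0.06) and with the median difference subtracted (-0.02). Each move was less than the spread of single genes above background (0.37), a wide measure for a median of this size. No subunit past 1.5-fold turned its direction. Among the other genes named past 1.5-fold, Tyk2, Pim2, Ifnlr1 and Osm lost this with 32 added before the logarithm (0.48, 0.25, -0.14 and -0.13), Osm also with values raised to background (-0.24) and Ifnlr1 after the loess correction (-0.57), while Myc kept it (0.65 to 0.80). No paired analysis was possible because there was 1 array per genotype, and for the same reason no array could be left out. Most of the subunits above background had their brighter value between the background level and the highest GC-matched control, where signal limits what can be seen.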
